A study of Vanessa cardui with 14 samples.

Results

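In the painted lady butterfly, Vanessa cardui, 27 of 13876 assembled genes were at least 2-fold higher in the black than in the red region of the pupal forewing. They were chosen from the forewing values alone: both black libraries had at least 5 FPKM (a read density that allows for gene length and sequencing depth), and the lower of them was at least 2 times the higher red library. The question followed here is what these 27 genes did in the hind wing, whose 10 libraries the rule did not use. Whole hind wings were taken from last instar larvae, from pupae 72 h and 5 d after pupation (the latter before any visible pigment), from pupae in which red and orange ommochromes began to show, and from pupae in which black melanin began to show. Forewings were dissected into a red and a black region. Each of these 7 groups had 2 libraries of polyadenylated RNA, from larvae reared under 1 common light and temperature regime. The titles and stage labels put the forewing regions at the melanin stage, whereas the treatment protocol puts their dissection at the ommochrome stage, and the files do not settle which is right. The labels give no strain, and do not say whether a library held 1 animal or several. The p-values below therefore measure only the spread between these libraries, which may be technical.

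Butterfly wing colour is made by scale cells, each of which matures late in pupal life and usually deposits a single kind of pigment. Melanins are built from tyrosine by way of dopa and dopamine and are laid down in the cuticle of the scale, and ommochromes are built from tryptophan. Red scales of nymphalid butterflies generally colour before black ones. Genes are identified in the deposited table by assembly number alone, and 0 of the 13876 numbers could be matched to RefSeq genes of this species. No role can therefore be given to any of the 27 genes, and no sequence of theirs was at hand. In whole wings and dissected regions, more cells of a type and more RNA per cell cannot be told apart, and colour and position within the forewing changed together.

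The summed FPKM of a library ranged from 482546 to 833658. Total read numbers are unknown, but the step that 1 read makes in low FPKM values gave relative depths of 0.986 to 1.89 times that of larval replicate 1, with the exception of 0.454 in replicate 1 of the melanin hind wing, where 3641 genes stood at 0 (1931 to 2707 elsewhere). Replicates lay farthest apart at 72 h: log2 differences between its libraries had an SD of 1.20 over the genes tested in the hind wing and 2.24 over the members, compared with 0.40 to 0.73 and 0.25 to 1.05 in the other groups.

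In the forewing, the members ran from barely detected in red to among the abundant transcripts of black. These values chose the genes and are given as a description, with no test, and the rule itself was met by 0.195% of the genes in the table. Gene c23707_g3 had 161.94 and 136.34 FPKM in the red libraries and 1550.56 and 1589.68 in the black ones. Gene c23104_g1 had 159.27 and 140.31 FPKM in red and 1385.33 and 1408.42 in black. Gene c28846_g6 had 79.25 and 76.26 FPKM in red and 822.38 and 798.73 in black. These 3 genes were the most abundant in black, and in each the black libraries differed by far less than the gap between regions. The largest ratio of the lower black to the higher red library was 14.9, in c17364_g1, which was low everywhere in the forewing (0.24 and 0.34 FPKM in red, 5.07 and 10.83 in black). The next was 10.1, in c28846_g6.

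Over all 27 genes that ratio had a median of 3.21. It was over 5 in 8 genes and under 2.5 in 9. Just inside the limit were c28428_g1, with 16.74 and 17.53 FPKM in red and 35.36 and 36.68 in black (ratio 2.02), and c1472_g1, with 15.35 and 12.05 in red and 37.8 and 31.5 in black (ratio 2.05). Just outside it were c26677_g6, with 60.11 and 48.98 FPKM in red and 125.99 and 119.62 in black (ratio 1.99), and c25134_g2, with 1.59 and 3.15 in red and 6.25 and 6.5 in black (ratio 1.98). Nothing in the values sets a border at 2. Mean levels in black ran from 5.64 to 1570 FPKM with a median of 36, and in red from 0.29 to 149.8 FPKM with a median of 10.4. The size of the list depended on scaling, since the median-of-ratios method would give 56 genes, among them all 27. The same rule turned round gave 94 genes higher in red, and 89 with median-of-ratios scaling.

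**Figure D1:**
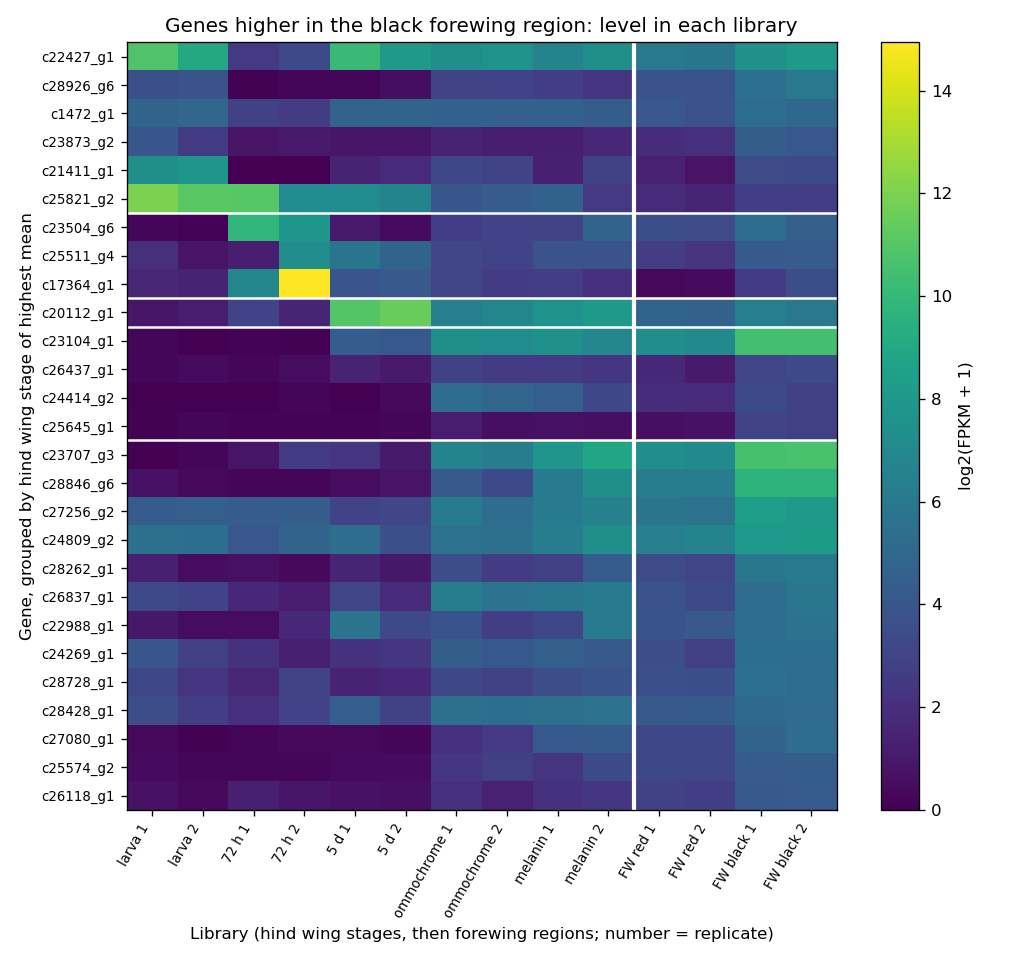
Level of each of the 27 genes (rows) in each of the 14 libraries (columns), as log2(FPKM + 1) on a colour scale. Rows are grouped by the hind wing stage of highest mean (white lines; from the top larva, 72 h, 5 d, ommochrome and melanin) and ordered within a group by the mean in the black region; 17 of 27 genes stand in the lower 2 groups, and the brightest cell is c17364_g1 in 72 h replicate 2.

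In the hind wing, a majority of these genes were lower in every library before pigment was visible than in any library after it began to appear. In 15 of 27 members all 4 ommochrome and melanin libraries lay above all 6 earlier ones, an arrangement found in 7.73% of the 10455 genes tested in the hind wing. Because the rule asks for at least 5 FPKM in a late pupal wing, the genes tested that had this level in both black libraries are a closer background, and 11% of those 4938 genes showed it. The median over members of the mean level was 1.85 FPKM in the larva, 1.80 at 72 h and 2.52 at 5 d, and then 9.13 at ommochrome onset and 16.7 at melanin onset.

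The highest hind wing mean fell at the melanin stage in 13 members and at the ommochrome stage in 4, against 14.4% and 8.25% of all genes tested and 17.6% and 8.63% of those with at least 5 FPKM in both black libraries. It fell in the larva in 6 members (57.8% of all genes tested), at 72 h in 3 (13.0%) and at 5 d in 1 (6.55%). With median-of-ratios scaling these counts were 10, 8, 3, 3 and 3. Over all 14 libraries the factors of that method were 1.80 and 1.84 in the larva and 0.687 to 1.15 in the other hind wing libraries. As deposited, the larval values of a typical gene thus stand higher. The background shares of highest means and of the arrangement above are for deposited values and were not computed after scaling. No member was under 1 FPKM in every hind wing library. The nearest was c25645_g1, named here after its values were seen. It had 7.47 and 6.03 FPKM in black, at most 0.21 in the 6 early hind wing libraries, and 1.18, 0.51, 0.58 and 0.53 in the ommochrome and melanin ones. It was the 1 member not tested, because only 1 hind wing library reached 1 FPKM. It is nevertheless counted among the 4 members highest at the ommochrome stage and among the 15 given above, whereas the background shares cover tested genes only.

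By limma's F test, 25 of 27 members changed over the 5 hind wing stages, against 64% of all genes tested and 73.3% of those with at least 5 FPKM in both black libraries. Beside the untested c25645_g1, the exception was c25511_g4, which peaked at 72 h in only 1 of the 2 libraries. It had 3.16 and 0.74 FPKM in the larva, 1.41 and 161.27 at 72 h, 55.09 and 27.41 at 5 d, 8.06 and 7 at ommochrome onset and 13.12 and 12.87 at melanin onset. In black it had 17.88 and 18.2 FPKM.

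The pigmenting hind wings (the mean of the ommochrome and melanin stages) were set against the unpigmented pupal ones (the mean of 72 h and 5 d). Of the 27 members, 18 were higher in pigmenting hind wings and 2 were lower by limma at an adjusted p under 0.05. Among all genes tested 18% were higher and 7.16% lower, and among those with at least 5 FPKM in both black libraries 26.7% and 5.39%. Over the 26 members tested the median log2 change was 1.83, against 0.15 over all genes tested. The log2 changes of the 18 ran from 0.80 to 5.69. A log2 change here is on the log2(FPKM + 1) scale, which understates the change of low genes.

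Gene c23707_g3, the most abundant member in the black region, had the largest such difference. In the hind wing it was at 0 and 0.21 FPKM in the larva, 0.79 and 5.21 at 72 h, 3.95 and 1.09 at 5 d, 101.26 and 80.21 at ommochrome onset and 222.74 and 443.04 at melanin onset. Every pigmenting library was above every earlier one (log2 change 5.69 with an SE of 0.458, limma adjusted p = 0.000125). Gene c23104_g1 began earlier, at 0.21 and 0 FPKM in the larva, 0.11 and 0.07 at 72 h and 19.12 and 16.24 at 5 d. It reached 170.81 and 147.7 FPKM at ommochrome onset and then stayed within its spread, at 180.58 and 119.61, at melanin onset (log2 change 5.09 between pigmenting and unpigmented pupal wings with an SE of 0.191, adjusted p = 7.78e-06, and 3.05 against 5 d alone). It was thus the 1 gene of the 3 most abundant in black that was above 10 FPKM before pigment was visible.

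**Figure D2:**
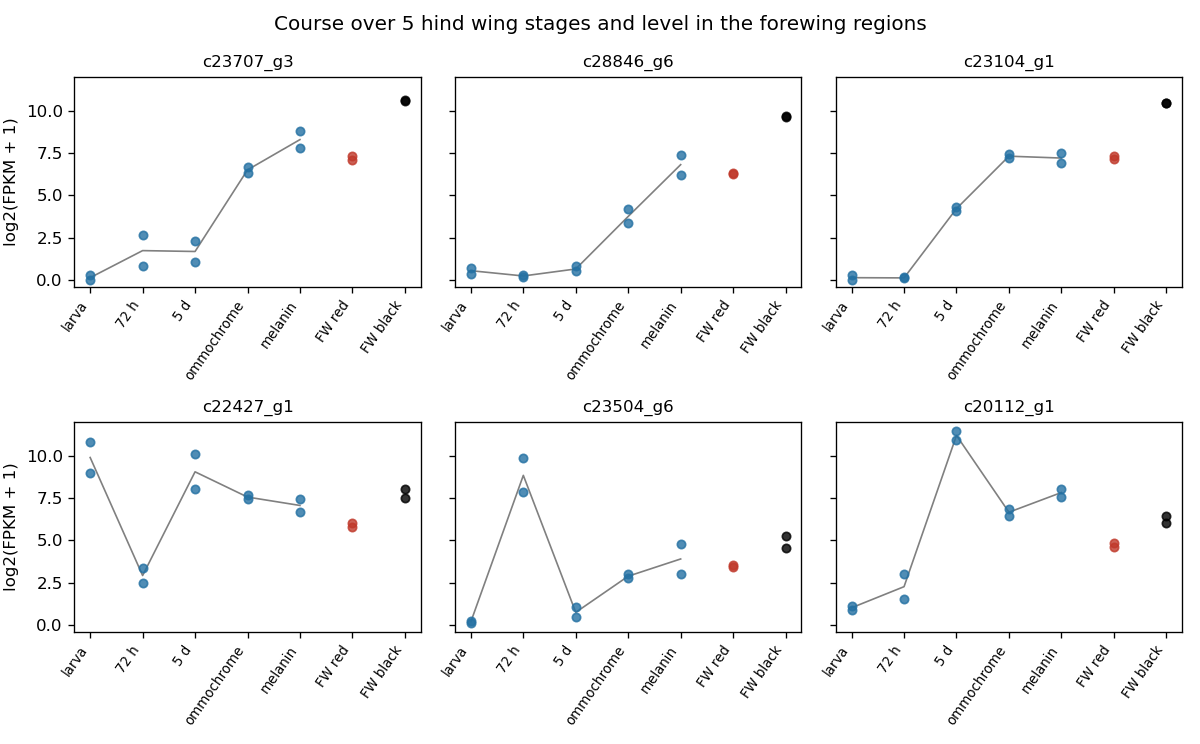
Courses of 6 of the 27 genes, as log2(FPKM + 1), over the 5 hind wing stages (blue points, 1 per library, with a line through the stage means) and the levels in the red (red points) and black (black points) forewing regions. The genes c23707_g3, c28846_g6 and c23104_g1 climb towards the pigment stages, whereas c22427_g1 dips at 72 h, c23504_g6 peaks at 72 h and c20112_g1 peaks at 5 d.

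The members lower in pigmenting hind wings were c25821_g2 and c17364_g1. Gene c25821_g2 ran down in its stage means, from 4073.96 and 2239.85 FPKM in the larva through 2130.74 and 145.5 at 72 h and 154.63 and 104.98 at 5 d to 15.14 and 18.68 at ommochrome onset and 24.17 and 4.67 at melanin onset (log2 change -4.20 with an SE of 0.826, adjusted p = 0.00815). None of its single steps from stage to stage was called (limma adjusted p 0.121 to 0.991). Its level in the black region, 5.72 and 5.56 FPKM against 2.45 and 1.93 in red, was the lowest mean of the list. Gene c17364_g1 had 125.21 and 31402.11 FPKM at 72 h, 14.4 and 16.73 at 5 d, 7.74 and 4.99 at ommochrome onset and 5.68 and 2.98 at melanin onset (log2 change -4.89 with an SE of 1.44, adjusted p = 0.0419). The size of the difference, though not its direction, depended on the 72 h libraries. The log2 change was -6.88 without replicate 1 of 72 h and -2.90 without replicate 2. A fit with 1 library at 72 h holds no spread of that stage, so it cannot show how well the level repeats. Without either 72 h library, and so against 5 d alone, the log2 change was -1.44 (limma adjusted p = 0.012). The call at an adjusted p of 0.0419 was lost when any larval, 5 d, ommochrome or melanin library was left out. It was also lost with a pseudocount of 5 (limma adjusted p = 0.068), without the filter on low values (0.0553) and with the replicate number as a block (0.0507).

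With both 72 h libraries left out, an alternative chosen after the data were seen, 17 members were higher in pigmenting hind wings than at 5 d and 4 were lower. In that fit 2134 of all genes tested were called in either direction. Their split by direction and the number of genes tested were not recorded for it. The 17 and 4 therefore have no background share beside them. The median log2 change was 1.82 over the members and 0.294 over all genes tested. Of the named members, c1472_g1 then changed sign and was not called (adjusted p = 0.402), and c21411_g1 was no longer called (adjusted p = 0.164). Gene c1472_g1 had 26.45 and 29.8 FPKM in the larva, 6.4 and 5.08 at 72 h, 26.39 and 27.39 at 5 d, 24.11 and 22.98 at ommochrome onset and 24.04 and 20.6 at melanin onset, so that 72 h alone stood apart. Its fall from the larva to 72 h (log2 change -2.12 with an SE of 0.222, adjusted p = 0.000346) and its rise from 72 h to 5 d (2.06 with an SE of 0.222, adjusted p = 0.000904) were called under every alternative.

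More members were called as rising from 5 d to the ommochrome stage than over any other single step. Of the 27 members, 11 rose and 1 fell by limma, against 5.41% and 2.86% of all genes tested. Among genes with at least 5 FPKM in both black libraries 8.18% rose and 2.11% fell. The median log2 change over the 26 members tested was 1.65, against 0.25 over all genes tested, and that of the members that rose ran from 1.51 to 4.92. This step ended in hind wings in which red, and not yet black, pigment had begun to show. The median of the member means was 9.13 FPKM there and 16.7 at the melanin stage, but these medians can fall on different genes. From the ommochrome to the melanin stage the median log2 change over the members tested was 0.18, against 0.07 over all genes tested. Over that later step 0 of all genes tested were called, so the counts of calls do not time the rise.

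The largest rise was that of c24414_g2. It was at 0 in both larval libraries, 0 and 0.2 FPKM at 72 h and 0.04 and 0.25 at 5 d, and then at 39.06 and 28.84 at ommochrome onset (log2 change 4.92 with an SE of 0.412, limma adjusted p = 0.000553) and 21.39 and 8.17 at melanin onset. With a pseudocount of 5 the log2 change was 2.91 and still called. It was among the members with a pigmenting hind wing level above that of the black region, where it had 9.15 and 6 FPKM, with 2.73 and 2.6 in red. Gene c23707_g3 rose next (log2 change 4.82 with an SE of 0.648, adjusted p = 0.00397). Gene c27256_g2 fell from 19.2 and 20.45 FPKM at 72 h to 7.16 and 8.06 at 5 d (log2 change -1.28 with an SE of 0.29, adjusted p = 0.0246), and then rose to 66.37 and 40.27 at the ommochrome stage (2.62 with an SE of 0.29, adjusted p = 0.00178). Its fall was not called with median-of-ratios scaling, without 72 h replicate 2 or without either 5 d library (adjusted p 0.051 to 0.0929), while its rise was called under every alternative.

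Gene c28846_g6 rose from 0.42 and 0.74 FPKM at 5 d to 17.1 and 9.13 at the ommochrome stage (log2 change 3.11 with an SE of 0.439, adjusted p = 0.00483), and the call was lost without ommochrome replicate 1 (adjusted p = 0.0529). Gene c26437_g1, low in all libraries, rose from 1.7 and 1.1 FPKM to 6.36 and 5.27 (log2 change 1.51 with an SE of 0.265, adjusted p = 0.0127). The call was lost with a pseudocount of 0.1 and without 5 d replicate 2 or either ommochrome library (adjusted p up to 0.122). The only member that fell was c20112_g1, which was near absent in the larva (0.85 and 1.22 FPKM) and at 72 h (7.03 and 1.88) and rose to 1995.73 and 2793.11 at 5 d (log2 change 8.94 with an SE of 0.471, adjusted p = 5.66e-05). It fell to 87.53 and 115.85 FPKM at the ommochrome stage (log2 change -4.54 with an SE of 0.471, adjusted p = 0.00128) and was at 192.53 and 267.22 at the melanin stage, above its 86.36 and 63.42 in the black region. Of the 12 calls of this step 8 were made under every alternative run.

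**Figure D3:**
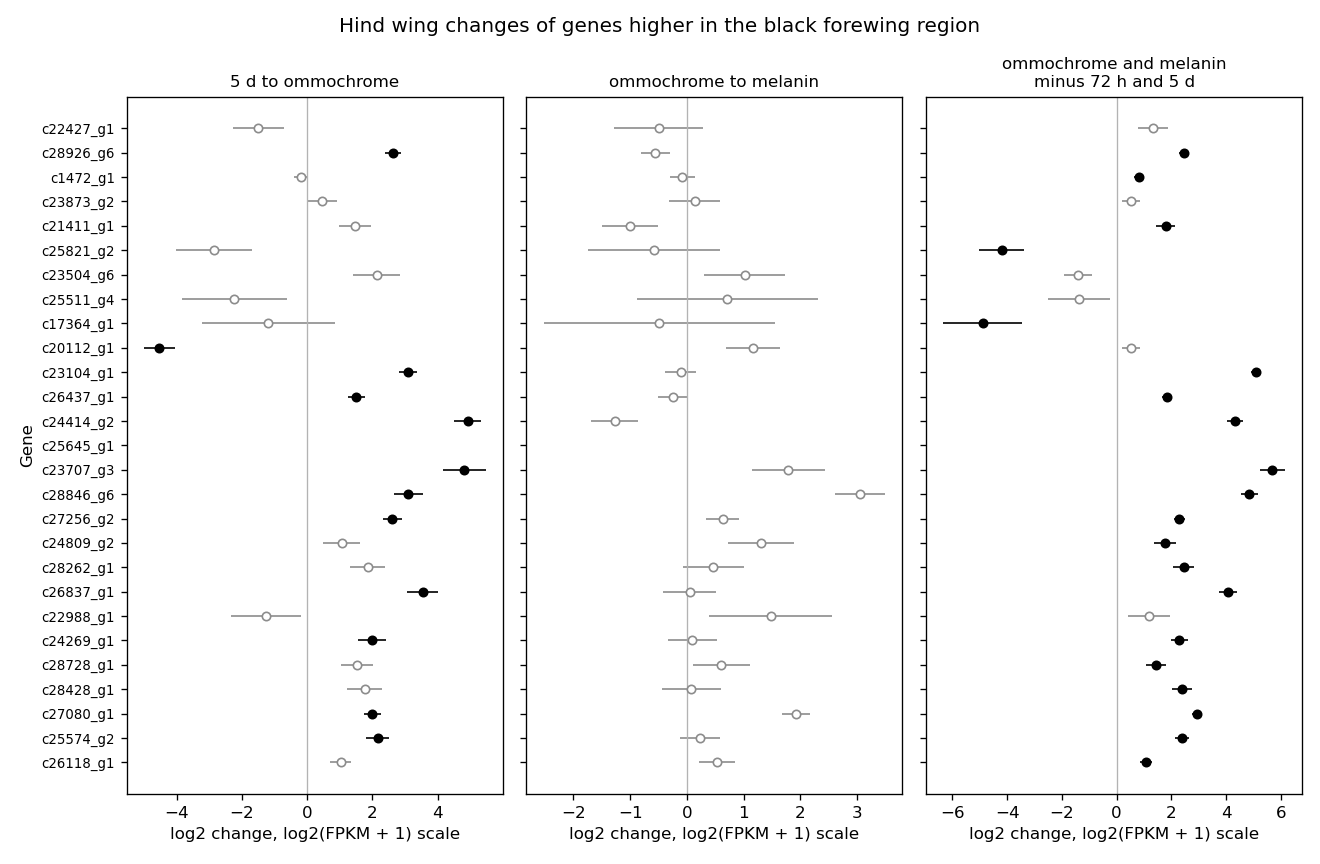
Log2 change (points) with its standard error (bars) of the members in 3 hind wing comparisons, on the log2(FPKM + 1) scale, with filled points where the limma adjusted p was under 0.05. From 5 d to the ommochrome stage 12 points are filled, from the ommochrome to the melanin stage 0, and between pigmenting and unpigmented pupal wings 20; c25645_g1 was not tested.

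From the ommochrome to the melanin stage, when black appears, 0 members were called by limma, and 0% of all genes tested in either direction. At an unadjusted p under 0.05 there were 5 members and 680 of all genes tested. In a limma fit that also held the 4 forewing libraries 2 members were called, but those libraries chose the members. The largest change was that of c28846_g6, from 17.1 and 9.13 to 73.61 and 169.91 FPKM (log2 change 3.06 with an SE of 0.439, adjusted p = 0.0903). The smallest adjusted p was that of c27080_g1, named after its values were seen, which had at most 0.28 FPKM in the 6 early libraries, 3.09 and 4.66 at ommochrome onset and 16.55 and 17.9 at melanin onset (log2 change 1.92 with an SE of 0.248, adjusted p = 0.0816). Both melanin libraries lay above both ommochrome libraries in 10 of 27 members, against 25.7% of all genes tested and 34% of those with at least 5 FPKM in both black libraries. Both lay below in 4, against 16% of all genes tested. These shares are close to the background. Melanin replicate 1 was the library of lowest depth, and 4 members differed more than 3-fold between the melanin libraries, up to 8.79-fold in c22988_g1 (8.45 and 74.24 FPKM), which was named after its values were seen.

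Not all of the list was late. In all, 5 members, c17364_g1, c25821_g2, c21411_g1, c23504_g6 and c20112_g1, had an early stage mean more than 10 times their highest pigmenting mean. This held for 8.57% of all genes tested and 2.43% of those with at least 5 FPKM in both black libraries. Between the larva and 72 h, 2 members rose and 7 fell, against 6.93% and 41.5% of all genes tested (7.45% and 48.4% of those with at least 5 FPKM in both black libraries). The median log2 change of all genes tested was -0.76. With median-of-ratios scaling, which moved that median to 0.01, 3 members rose and 5 fell. Calls in either direction over all genes tested then numbered 2607, against 5065 as deposited. The shares above are for deposited values and do not apply to the scaled counts. Between 72 h and 5 d, 4 members rose and 2 fell, against 7.2% and 7.78% of all genes tested. Among those with at least 5 FPKM in both black libraries the shares were 9.66% and 8.38%. With median-of-ratios scaling 6 members rose and 1 fell. Calls in either direction over all genes tested were then 1734, against 1566 as deposited.

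Gene c23504_g6 was a gene of 72 h. It had 0.19 and 0.1 FPKM in the larva, 920.36 and 229.17 at 72 h (log2 change 8.65 with an SE of 0.717, adjusted p = 0.00013) and 1.06 and 0.37 at 5 d (-8.10 with an SE of 0.717, adjusted p = 0.000355). It was at 5.85 and 6.97 FPKM at ommochrome onset, 7.23 and 26.23 at melanin onset and 37.55 and 22.41 in the black region. Gene c17364_g1 rose over the same step from 2.01 and 1.68 FPKM (log2 change 9.45 with an SE of 2.04, adjusted p = 0.00696). That change was 13.43 without replicate 1 of 72 h and 5.47 without replicate 2. In 72 h replicate 2 it alone made up most of the 4.97% of summed FPKM that the 27 genes held there, against 0.106% to 0.837% in the other libraries.

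Other members were present in the larva and fell to a low level at 72 h, with different courses afterwards. Gene c22427_g1 had 1787.49 and 511.68 FPKM in the larva, 4.68 and 9.17 at 72 h (log2 change -6.98 with an SE of 0.78, adjusted p = 0.000452) and 1095.29 and 257.69 at 5 d (6.13 with an SE of 0.78, adjusted p = 0.00199). It was at 175.6 and 201.84 FPKM at ommochrome onset and 102.76 and 172.4 at melanin onset, with both means between those of the red (63.64 and 55.1) and the black region (179.16 and 259.65). Gene c21411_g1 had 170.46 and 243.65 FPKM in the larva and was listed at 0 in both 72 h libraries (limma adjusted p = 4.64e-05). It stayed far below its larval level, at 1.81 and 2.54 FPKM at 5 d, 8.29 and 7.21 at ommochrome onset and 1.44 and 6.74 at melanin onset, and neither the step from 72 h to 5 d (adjusted p = 0.0604) nor that from 5 d to ommochrome onset (adjusted p = 0.121) was called. Gene c28926_g6 had 11.73 and 12.93 FPKM in the larva, 0.08 and 0.15 at 72 h (log2 change -3.58 with an SE of 0.254, adjusted p = 6.72e-05) and 0.2 and 0.44 at 5 d. It rose to 7.24 and 7.07 FPKM at ommochrome onset (log2 change 2.63 with an SE of 0.254, adjusted p = 0.000991) and was at 5.58 and 3.67 at the melanin stage. In these 3 genes the larval and 72 h libraries did not overlap.

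The remaining 11 members with their highest mean at the melanin stage, beside c23707_g3 and c28846_g6, covered means of 3.75 to 125.9 FPKM there. Their highest mean among the 3 early stages ran from 0.235 to 42.8 FPKM, so the group held genes that were near absent before pigment and genes that were present throughout. In 7 of the 27 members all 3 early means were under 5 FPKM and a pigment stage mean reached 5. This held for 3.62% of all genes tested and 2.53% of those with at least 5 FPKM in both black libraries.

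A whole hind wing holds areas of several colours, and its level was set beside those of the forewing regions as a description. In 17 members the melanin hind wing mean lay between the means of the red and the black region, in 5 it lay under red and in 5 above black. The rule asks for a gap of at least 2-fold between the regions, which itself favours a value between them. The share over all genes was not computed, so these counts describe the members only. At the ommochrome stage 10 lay between, 12 under red and 5 above black. For the 3 members picked as most abundant in black, the hind wing stayed far below the black region. Gene c23104_g1 was at 150.1 ± 43.1 FPKM (SD, n = 2) in melanin hind wings and 149.8 ± 13.4 in red regions, against 1397 ± 16.3 in black. The level of c23707_g3 was 332.9 ± 155.8 FPKM in melanin hind wings and that of c28846_g6 was 121.8 ± 68.1.

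**Figure D4:**
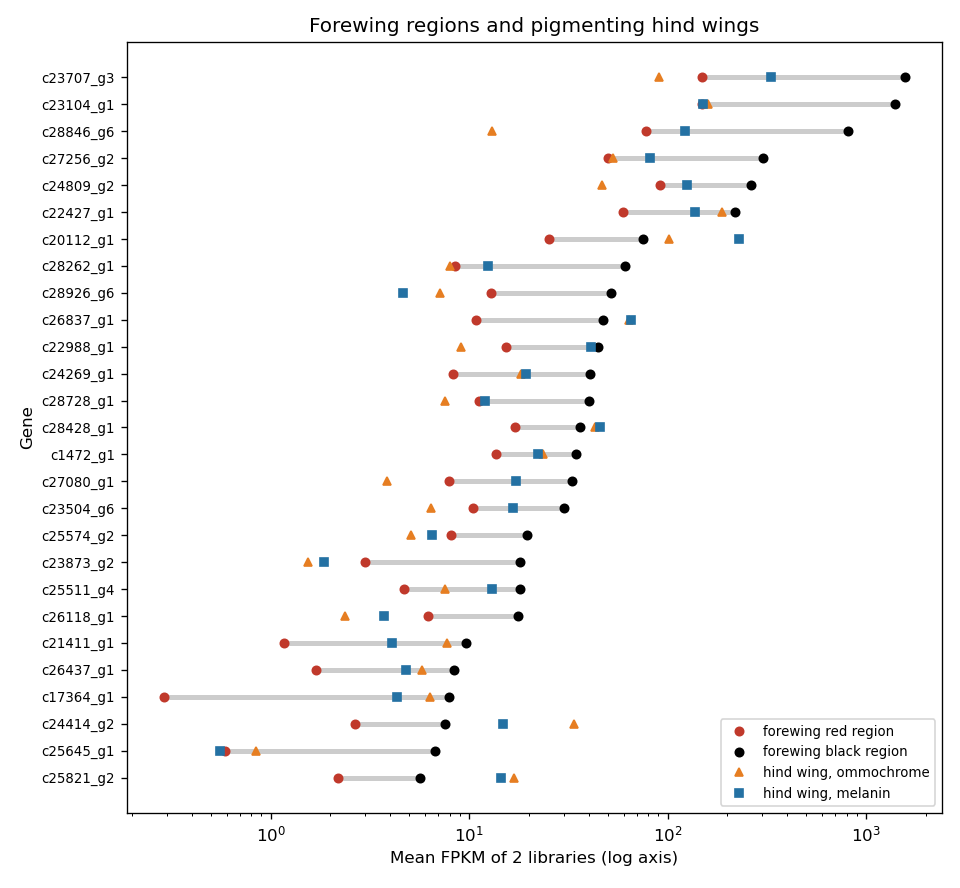
Mean FPKM of 2 libraries (log axis) of each member in the red (red circles) and black (black circles) forewing regions, joined by a grey bar, and in ommochrome (orange triangles) and melanin (blue squares) hind wings. Blue squares stand on the bar in 17 members, left of it in 5 and right of it in 5.

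The genes higher in red followed a similar course in the hind wing. Of those 94 genes 84 were tested, of which 45 were higher and 6 lower in pigmenting than in unpigmented pupal hind wings, and 29 rose and 3 fell from 5 d to the ommochrome stage. Their median log2 changes were 1.19 and 1.16, against 1.83 and 1.65 for the genes higher in black, and the difference between the lists was not tested. A rise towards the pigment stages is thus not shown to be particular to either side.

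Each of the 27 members came from a different assembled component, a group of similar sequences. Of these, 6 shared their component with 8 genes outside the list, while 34.5% of all genes in the table shared a component with another gene. Reads of such genes may have been divided between similar sequences. One of the 8 was on the opposite side of the forewing comparison and was named after its values were seen. Gene c23104_g5 had 10.34 and 6.26 FPKM in red and 0.77 in both black libraries, and at most 0.76 in any hind wing library, while c23104_g1 of the same component was 9.33-fold higher in black by the means. The other 7 did not meet the rule in either direction.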

How the data were processed

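Expression was measured in 14 libraries of polyadenylated RNA, 2 in each of 7 groups, by 150 bp paired-end sequencing. Per the submitters' processing notes the aligner was Bowtie, with no version stated, and by the title of the series the reference was assembled de novo. Assembly and quantification are not described in the sources used. The authors deposited FPKM with 2 decimals, 1 column per library, and further scaling between libraries is not stated. As FPKM are shares of a library, a few abundant genes can lower all others.

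Members were taken by the stated rule from the FPKM as deposited. Values of the 10 hind wing libraries were analysed as log2(FPKM + 1) with limma 3.58.1 in R 4.3.3, as 5 group means with no covariate, for the 10455 genes that reached 1 FPKM in 2 or more of these libraries. The fit left 5 residual degrees of freedom, and the spread prior followed mean expression (median 2.81 prior degrees of freedom). The forewing libraries were left out because they chose the members. Tests were two-sided, with Benjamini-Hochberg adjustment over all genes tested in a comparison and a limit of 0.05 on the adjusted p. The model was tested on simulated data with known changes, and the outcome is not given here. Values were drawn with independent normal noise around each gene's average over the hind wing libraries, with its fitted spread. Genes given no change were thus flat over the 5 stages. The simulated data did not hold the wider spread at 72 h or the lower depth of melanin replicate 1, so the test does not cover them. Relative depth was the mode of ratios between low FPKM values, which fall on steps of 1 read, computed with NumPy 2.4.6 and pandas 2.3.3 (Python 3.11.15). Figures were drawn with matplotlib 3.10.9.

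Genes were named by rule: per comparison at most 2 that rose and 2 that fell, called, with groups not overlapping, a higher mean of at least 5 FPKM and the largest log2 change. The 2 most abundant in black per stage of highest mean, the 2 of largest ratio and the genes nearest the fold limit were added. Genes outside this rule are marked as named after their values were seen, except c1472_g1, whose steps are given because it lay near the limit. The members, lists and tests were chosen with earlier results of these data known.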

Additional observations from a re-analysis of the deposited data

How the results depend on the processing

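The number of members moved with the rule: it was 56 with median-of-ratios scaling, 69 at a fold of 1.5, 16 at a fold of 3, 63 at a minimum of 1 FPKM, and 53 to 61 with a forewing library left out, since a single library is easier to pass. In the hind wing, median-of-ratios scaling gave 3 members with the highest mean in the larva, 3 at 5 d and 8 at the ommochrome stage. With a hind wing library left out these counts ran from 5 to 6, 1 to 2 and 2 to 6, and 0 to 1 members were under 1 FPKM in every library. The count called from 72 h to 5 d was 10 in the fit to all 14 libraries, with 7 higher and 3 lower, and that from the ommochrome to the melanin stage was 2 in that fit and 1 with a pseudocount of 5; the cause was not tested. Leaving out the 10 most abundant genes of any library, with totals made equal, gave 7 higher and 2 lower from 72 h to 5 d. With a hind wing library left out, 8 to 18 members were called from 5 d to the ommochrome stage and 17 to 22 between pigmenting and unpigmented pupal wings. Apart from that of c1472_g1 without 72 h, no change given above for a named gene that was called turned its direction under an alternative run. The 15 members with every pigmenting library above every earlier one numbered 15 to 17 with median-of-ratios scaling or without melanin replicate 1, the 72 h stage or the larval stage, and 17 members were called from 5 d to the ommochrome stage without 72 h (both sets of alternatives chosen after the data were seen). Replicate numbers did not pair the hind wing libraries: deviations of same-numbered libraries correlated at -0.119 to 0.0597 over 10 pairs of stages. With the replicate number as a block, 12 members were called from 5 d to the ommochrome stage, 19 between pigmenting and unpigmented pupal wings, where the call of c17364_g1 was lost, and 23 over the 5 stages. With 2 libraries per group and an unknown total depth, changes of genes near 1 FPKM are the least certain.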
